A study of Mus musculus with 10 samples.

Results

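The genes described here are the mouse Cdk inhibitors Cdkn1a, Cdkn1b, Cdkn2a, Cdkn2b, Cdkn2c and Cdkn2d, the D cyclins Ccnd1, Ccnd2 and Ccnd3, and the retinoblastoma gene Rb1. They were found by their gene names in the probe annotation of the array, which gave 16 probes for 10 genes among 55681 probes and 34607 gene names. RNA was measured on 10 single-colour Agilent arrays, a pair per group, from 5 groups of cells of Six2-GFP transgenic mice of mixed C57BL6J/ICR background, in which GFP marks cells that express the nephron progenitor factor Six2. The E11.5 progenitors and the P0 progenitors were GFP-positive cells sorted by flow cytometry from E11.5 embryos and at birth, and the P0 non-progenitors, a mixture of all other cells, were sorted at birth for the absence of GFP. The 8-day culture and the 19-day culture started from GFP-positive E11.5 cells and were grown in conditioned media for 8 and 19 days. Every group carried the transgene, and there was no group of E11.5 GFP-negative cells and no culture of P0 cells. The labels leave unsaid if a second sort followed culture, and whether the 2 samples of a group came from separate litters or cultures. The p-values therefore measure only the spread between these samples, which may be technical.

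The D cyclins bind the kinases Cdk4 and Cdk6 and let them phosphorylate the retinoblastoma protein, which then releases E2F factors and allows entry into S phase. The Ink4 inhibitors p16Ink4a (Cdkn2a), p15Ink4b (Cdkn2b), p18Ink4c (Cdkn2c) and p19Ink4d (Cdkn2d) block Cdk4 and Cdk6, and the Cip and Kip inhibitors p21 (Cdkn1a) and p27 (Cdkn1b) act mainly on complexes of Cdk2. Cdkn2a also encodes p19Arf, from another first exon and another reading frame, which stabilises p53 by holding back Mdm2, and Cdkn1a is a classical target of p53. Cdkn2a and Cdkn2b are neighbours in the genome, are kept silent by Polycomb proteins in many embryonic cells, and are known to rise in cells grown for long times in culture.

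The probes that carry the results are shown by their first 30 bases (5′ to 3′, from the array files, no part marked), because the readings depend on what each one can see.
Cdkn2a, brighter probe A_55_P2008437: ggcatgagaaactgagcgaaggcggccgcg
Cdkn2a, dimmer probe A_55_P2008438: cttctagcgatgctagcgtgtctagcatgt
Cdkn2b, brighter probe A_55_P1988183: ccagtgatgaattgtagtggtagcaggtta
Cdkn2b, dimmer probe A_55_P1979526: ttgagcctcaccttgaagccaaggggatca
Cdkn2c, A_55_P2074796: cagtgtctgacttggagactttgttttaaa
Cdkn1a, brightest probe A_51_P363947: ctaagggagctcacaggacactgagcaatg
Cdkn1a, probe A_55_P1986282: aatggagacagagaccccagataattaagg
Ccnd1, A_66_P111562: ttaatctgttaggttctagtgttccgtctt
Both Cdkn2a probes are annotated to both RefSeq transcripts of the gene, so p16Ink4a and p19Arf could not be told apart. The brighter one lies at chr4:88920405-88920464 and the dimmer one at chr4:88920543-88920602 of mm9, the assembly the array design uses. The Cdkn2b probes lie at chr4:88952276-88952335 (brighter) and chr4:88952720-88952779, and the Cdkn2c probe at chr4:109333508-109333567. The brightest Cdkn1a probe is at chr17:29237377-29237436 and is annotated to both RefSeq transcripts of Cdkn1a, while A_55_P1986282, at chr17:29227986-29228045, is annotated to only 1 of them. The Ccnd1 probe lies at chr7:152116202-152116261. No probe of these genes shared a run of more than 9 bases with a probe of another of the 10 genes.

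Cdkn2a, Cdkn2b and Cdkn2c carried the widest differences between groups, and Cdkn1a followed, so the 250 bases before their RefSeq start sites are also shown (assembly GRCm38.p6, 5′ to 3′ on the gene's strand). Capitals mark every match, on either strand, to the GC box GGGCGG or to the p53 half-site. The E2F-type sites TTTGGCGC and TTTCGCGC and the TATA box TATAAA were also searched on both strands, and none was in the 6 windows printed.
Cdkn2a, upstream start, chr4:89294620-89294869, minus strand: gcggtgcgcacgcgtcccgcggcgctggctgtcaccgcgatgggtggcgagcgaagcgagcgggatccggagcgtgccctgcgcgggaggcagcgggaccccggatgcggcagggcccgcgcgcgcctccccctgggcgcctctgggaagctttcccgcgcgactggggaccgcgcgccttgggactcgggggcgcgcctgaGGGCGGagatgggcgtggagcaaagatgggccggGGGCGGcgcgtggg
Cdkn2a, downstream start, chr4:89282193-89282442, minus strand: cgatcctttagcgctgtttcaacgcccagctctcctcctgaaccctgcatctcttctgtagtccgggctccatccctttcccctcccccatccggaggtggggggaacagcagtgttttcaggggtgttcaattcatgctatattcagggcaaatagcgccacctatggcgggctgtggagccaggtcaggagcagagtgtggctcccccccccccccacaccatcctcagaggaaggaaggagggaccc
Cdkn2b, chr4:89311033-89311282, minus strand: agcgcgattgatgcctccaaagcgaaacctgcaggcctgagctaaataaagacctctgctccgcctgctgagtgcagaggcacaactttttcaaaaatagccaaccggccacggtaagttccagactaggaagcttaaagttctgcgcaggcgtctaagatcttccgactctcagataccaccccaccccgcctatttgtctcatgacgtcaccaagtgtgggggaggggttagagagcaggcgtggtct
Cdkn2c, upstream start, chr4:109666757-109667006, minus strand: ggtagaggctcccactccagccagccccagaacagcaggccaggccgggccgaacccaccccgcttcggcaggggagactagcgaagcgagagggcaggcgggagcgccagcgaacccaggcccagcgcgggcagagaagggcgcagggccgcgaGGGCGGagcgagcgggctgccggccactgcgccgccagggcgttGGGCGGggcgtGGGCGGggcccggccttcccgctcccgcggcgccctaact
Cdkn1a, upstream start, chr17:29090729-29090978, plus strand: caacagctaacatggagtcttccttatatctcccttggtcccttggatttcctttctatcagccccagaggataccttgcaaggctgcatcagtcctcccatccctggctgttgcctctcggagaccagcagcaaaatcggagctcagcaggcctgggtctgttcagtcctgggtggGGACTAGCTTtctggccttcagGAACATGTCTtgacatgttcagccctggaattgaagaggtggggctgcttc
Cdkn1a, downstream start, chr17:29093519-29093768, plus strand: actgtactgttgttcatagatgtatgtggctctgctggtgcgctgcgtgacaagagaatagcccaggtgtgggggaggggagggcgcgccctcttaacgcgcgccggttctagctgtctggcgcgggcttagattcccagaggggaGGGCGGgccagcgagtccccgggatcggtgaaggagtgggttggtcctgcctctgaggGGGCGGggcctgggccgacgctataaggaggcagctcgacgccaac
Of the 10 genes, 7 had an entry, with 11 windows in all, and Ccnd1, Ccnd2 and Rb1 had none. The upstream Cdkn2a window held 40 CpG dinucleotides, more than 98.7% of 32851 windows of the same length, and 2 GC boxes. The downstream Cdkn2a window held 7 CpG and the Cdkn2b window 12, with no GC box in either, so the start sites of this locus differ widely in base composition. The upstream Cdkn2c window held 29 CpG and 3 GC boxes, and the window before its downstream start (chr4:109665373-109665622, not printed) held 6 CpG and no GC box. GC boxes were found in 32.7% of all windows, E2F-type sites in 0.654%, the TATA box in 12.4% and the p53 half-site in 7.13%. The upstream Cdkn1a window held 2 p53 half-sites and 2 CpG, and the downstream one held no half-site, 2 GC boxes and 19 CpG. A match describes the letters of a window and does not show binding.

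Each array had 59305 spots besides controls. The extraction software placed 60.4% to 69.8% of them well above background, and none was saturated. Values below are log2 of the background-corrected intensity minus the 75th percentile of the same array, so 0 is a bright probe and a step of 1 is a doubling. A change passed when its adjusted p from limma (Benjamini-Hochberg over 26211 tested genes, in a fit of all 10 arrays) was under 0.05. Six2 was at 4.70 and 4.82 in E11.5 progenitors, 4.27 and 4.11 in P0 progenitors and 5.21 and 4.61 in the 8-day culture, against -2.26 and -4.55 in P0 non-progenitors. It was at 1.06 and 2.32 in the 19-day culture. Of 8 nephron progenitor markers, 5 and 6 were above background there, and 7 or 8 on every other array, those of P0 non-progenitors included. Their mean log2 level was -1.405 and 0.119 in the 19-day culture and 0.492 and 0.145 in P0 non-progenitors. It was 1.917 and 2.322 in the 8-day culture, below the 3.33 to 3.866 of both groups of sorted progenitors. The summed level of 5 renal stroma markers was 6.73 and 6.63 in the 19-day culture, 5.98 and 5.99 in P0 non-progenitors and 2.14 to 4.19 on the other 6 arrays. That sum was carried by Col3a1, at 6.50 and 6.06 in the 19-day culture. The mean log2 level of the same 5 markers was instead lower there, 1.41 and 1.07 against 2.95 and 3.03 in P0 non-progenitors, with Ren1 at -2.52 and -2.88 against 4.68 and 4.18. Within that list Pdgfra was at 1.41 and 2.27 in the 19-day culture and below background in both groups of sorted progenitors, while Foxd1 was below background on the second 19-day array. On both 19-day arrays 3 of 5 endothelial markers (Kdr, Pecam1 and Emcn) were above background and Cdh5 and Tie1 below it, and 4 of 6 tubule markers were above it and Umod and Slc12a1 below it. The E11.5 progenitors were alike, with 2 and 3 endothelial and 4 tubule markers above background and the same tubule genes below it. The summed tubule level was -0.25 and -0.19 in the 19-day culture, -0.65 and -0.72 in E11.5 progenitors and 6.32 and 6.45 in P0 non-progenitors. The summed level of 5 skeletal muscle markers was 4.12 and 4.26 in the 8-day culture, 3.41 and 3.87 in the 19-day culture and 1.96 to 3.24 in the sorted cells. Their mean log2 level was 0.893 and 1.518 in the 8-day culture, 0.33 and -0.751 in the 19-day culture and -1.855 to -0.349 in the sorted cells. By that mean the 19-day culture overlapped the sorted cells, and Myh3 was below background on its second array. For 6 erythroid markers the summed level was 5.98 and 4.41 in E11.5 progenitors and 3.95 and 3.37 in P0 progenitors. It was 9.42 and 9.23 in P0 non-progenitors and -0.64 to 0.23 in both cultures. The part of these cell type markers in the changes below was not tested, and in such bulk samples fewer cells of a type and less RNA per cell cannot be told apart. The slide also moved with the groups: all sorted cells and 8-day culture replicate 1 were on slide 1, and 8-day culture replicate 2 and both 19-day arrays on slide 2, so a value with slide as a term rests on the 8-day pair.

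Cdkn2a, Cdkn2b, Cdkn2c and Cdkn1a had their highest group mean in the 19-day culture, and the D cyclins did not move together. Between P0 and E11.5 progenitors 3 of the 10 genes passed (Cdkn2c and Ccnd1 higher, Ccnd3 lower at P0), where 3.96% of all genes tested did. The 8-day culture differed from E11.5 progenitors in 4 (Cdkn1a, Cdkn2c and Cdkn2d higher, Ccnd1 lower), against 4.83% of all genes. The 19-day culture differed from them in 5, all higher (Cdkn1a, Cdkn2a, Cdkn2b, Cdkn2c and Ccnd1), against 16.9% of all genes in either direction and 7.26% higher. From the 8-day to the 19-day culture 3 rose (Cdkn2a, Cdkn2b and Ccnd1), against 8.10% in either direction and 2.68% higher. Against P0 progenitors, 1 gene passed in the 8-day culture (Ccnd1, lower), where 3.98% of all genes did, and 4 in the 19-day culture (Cdkn2a, Cdkn2b and Cdkn2c higher, Ccnd1 lower), where 12.7% did. None of the 10 passed between P0 progenitors and P0 non-progenitors by limma, where 8.40% of all genes did, and 1 of them had an unadjusted p under 0.05. The comparisons with E11.5 progenitors share those 2 arrays, so their counts are not independent of each other. Cdkn2a and Cdkn2b entered the tests only through the cultures, where they are high, so their calls against sorted cells are no independent support. The median log2 change of the 10 genes was 1.06 in the 19-day culture against E11.5 progenitors, beside 0.01 for all genes tested.

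**Figure D1:**
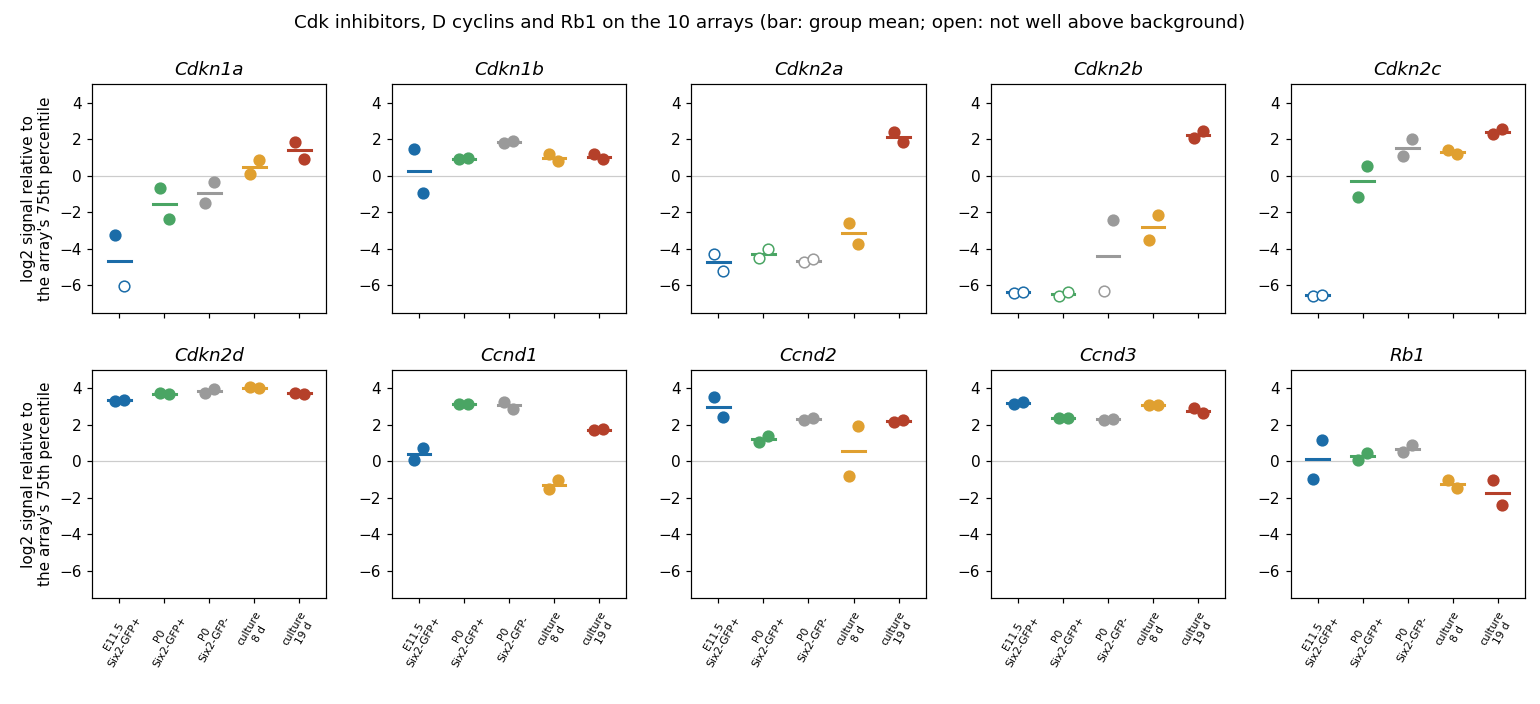
Level of each of the 10 genes (y axis, log2 intensity relative to the 75th percentile of the array, brightest probe of the gene) on the 10 arrays (x axis, 5 groups of 2). Points are arrays, bars are group means, and open points were not well above background; Cdkn2a and Cdkn2b stand near 2 in the 19-day culture alone, and Cdkn2c is below background in E11.5 progenitors alone.

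Cdkn2a, whose products p16Ink4a and p19Arf act on the retinoblastoma and p53 pathways, was above background in cultured cells only. Its brighter probe read -4.27 and -5.21 in E11.5 progenitors, -4.51 and -4.02 in P0 progenitors and -4.72 and -4.57 in P0 non-progenitors, all below background. It read -2.57 and -3.70 in the 8-day culture and 2.38 and 1.86 in the 19-day culture. The 19-day arrays stood far above all others, the 8-day arrays were above every sorted array, and the sorted groups lay within 0.48 of each other in their means. From 8 to 19 days the level rose by 5.26 (SE 0.52, adjusted p = 0.00283), which is 38.3-fold. Where a gene was not above background on any array of a group, the fold is a lower bound: the mean of the brighter group against the mean, over the dimmer group's arrays, of the probe's own reading or the detection floor (the dimmest signal still well above background on that array), whichever was higher. The 19-day culture was at least 81.6-fold above E11.5 progenitors (adjusted p = 0.00041), at least 83.3-fold above P0 progenitors (0.00072) and at least 109-fold above P0 non-progenitors (0.000516). The brighter probe entered the tests only through the 8-day and 19-day cultures, where it is high. Its p-values against sorted cells are therefore no independent support. The 8-day culture, at least 2.13-fold above E11.5 progenitors, did not pass (adjusted p = 0.135). In a fit with slide as a term, the 19-day culture still differed from E11.5 progenitors by 7.99 (adjusted p = 0.00909) and from the 8-day culture by 5.82 (0.00821). Normexp background correction (offset 50), which lifts low readings, gave 4.03 against E11.5 progenitors (adjusted p = 9.78e-05).

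With the dimmer Cdkn2a probe the 19-day culture alone stood apart. It read -3.54 and -2.99 in the 19-day culture and between -6.79 and -6.16 on the other 8 arrays, all below background. By the same bound the 19-day culture was at least 2.11-fold above the 8-day culture. This probe entered the tests only through the 19-day culture, where it is high, so no p is given. Both probes of the gene correlated at r = 0.962 over the 10 arrays, a description that rests on the 19-day pair.

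Cdkn2b, which encodes p15Ink4b and lies next to Cdkn2a, had a similar course with more scatter. Its brighter probe read -6.39 and -6.38 in E11.5 progenitors, -6.58 and -6.35 in P0 progenitors, -6.32 and -2.43 in P0 non-progenitors, -3.49 and -2.15 in the 8-day culture and 2.05 and 2.45 in the 19-day culture. It was above background on 5 arrays: both of each culture and P0 non-progenitors replicate 2, which lay within the range of the 8-day culture. The 19-day culture was at least 105-fold above E11.5 progenitors (log2 change 8.63, SE 1.11, adjusted p = 0.00288), at least 97.2-fold above P0 progenitors (0.00415) and 98.4-fold above P0 non-progenitors (0.012), or 65.9-fold with P0 non-progenitors replicate 1, below background, raised to the detection floor. This probe, too, entered the tests only through the 8-day and 19-day cultures, so its p-values against sorted cells are no independent support. From 8 to 19 days Cdkn2b rose by 5.07 (SE 1.11, adjusted p = 0.0349), or 33.5-fold. The 8-day culture, at least 3.13-fold above E11.5 progenitors, did not pass (adjusted p = 0.126), although it did without either P0 non-progenitors array (0.0284 and 0.0295). Once slide was a term, the 19-day culture no longer passed against E11.5 progenitors (7.28, adjusted p = 0.0913), P0 progenitors (7.36, 0.108), P0 non-progenitors (5.27, 0.248) or the 8-day culture (4.39, 0.134), and under normexp it differed from E11.5 progenitors by 4.39 (0.000352). The rise from 8 to 19 days was also lost without either P0 progenitors array (adjusted p = 0.0673 and 0.0674), either 8-day array (0.134 and 0.0867) or either 19-day array (0.128 and 0.121), and the difference from P0 non-progenitors without either 19-day array (0.0567 and 0.0558).

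The dimmer Cdkn2b probe set the 19-day culture apart as well. It read -2.08 and -1.71 there and between -6.75 and -5.33, below background, on the other 8 arrays. The 19-day culture was at least 5.96-fold above E11.5 progenitors and at least 5.49-fold above the 8-day culture with this probe, which also entered the tests through the 19-day culture alone, so no p is given. Cdkn2a and Cdkn2b correlated at r = 0.901 over the 10 arrays, again a description that rests mainly on the 19-day pair.

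**Figure D2:**
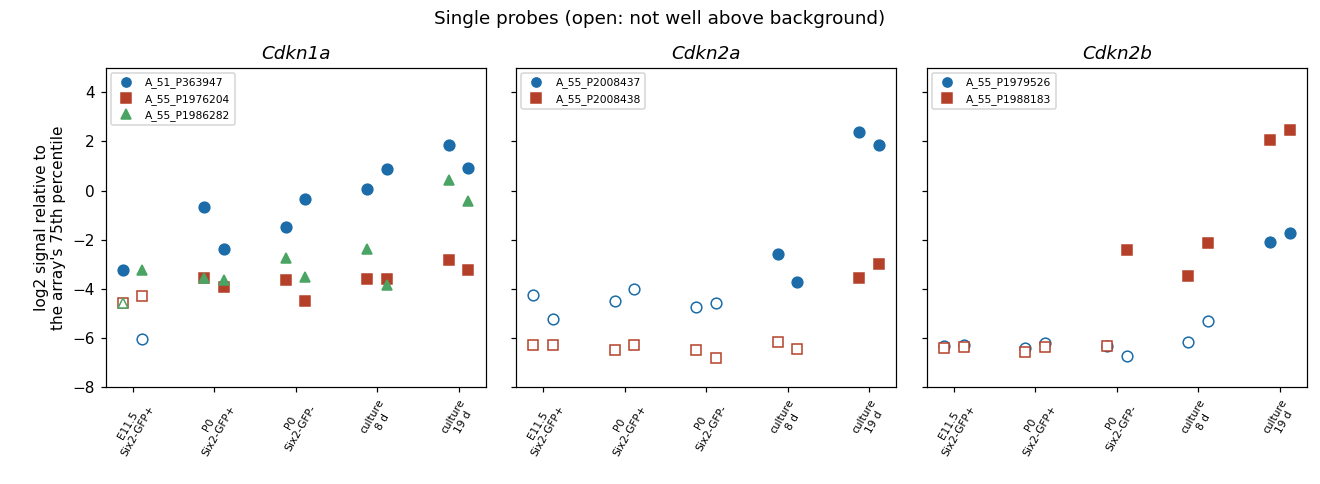
Level of every probe of Cdkn1a, Cdkn2a and Cdkn2b (y axis, log2 intensity relative to the 75th percentile of the array) on the 10 arrays (x axis, 5 groups of 2), with open symbols for readings not well above background. Both probes of Cdkn2a and both of Cdkn2b are highest on the 19-day arrays, and the 3 Cdkn1a probes differ in how far they move.

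Cdkn2c, which encodes p18Ink4c, was not detected in E11.5 progenitors and was detected in every other group. It read -6.55 and -6.53 in E11.5 progenitors, -1.14 and 0.52 in P0 progenitors, 1.08 and 1.99 in P0 non-progenitors, 1.42 and 1.21 in the 8-day culture and 2.30 and 2.54 in the 19-day culture. E11.5 progenitors were thus the single low group, the P0 progenitor arrays came next, and the other groups lay above both. Against E11.5 progenitors, P0 progenitors were at least 17.9-fold higher (adjusted p = 0.00328), P0 non-progenitors at least 64.0-fold (0.000225), the 8-day culture at least 55.0-fold (0.00132) and the 19-day culture at least 118-fold (0.000214). These differences kept their calls with slide as a term (adjusted p = 0.0074, 0.000921, 0.00923 and 0.0109) and, at smaller size, under normexp: 2.20 in P0 progenitors (0.0428), 3.54 in the 8-day culture (0.00859), 4.66 in the 19-day culture (0.000679), and -3.79 for E11.5 progenitors minus P0 non-progenitors (0.00121). Differences among the other groups were smaller: the 19-day culture exceeded P0 progenitors by 2.73 (SE 0.55, adjusted p = 0.0188), while P0 progenitors differed from P0 non-progenitors by -1.84 without passing (adjusted p = 0.0896). The first of these was lost with slide as a term (2.94, adjusted p = 0.177) and without P0 progenitors replicate 1 (1.90, 0.0759) or either 19-day array (0.0751 and 0.0788), and the second passed without P0 progenitors replicate 2 (-2.67, 0.0401).

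Cdkn2d, which encodes p19Ink4d, was bright everywhere and nearly flat. Its group means ran from 3.33 in E11.5 progenitors to 4.04 in the 8-day culture, a range of 0.71, the smallest of the 10 genes. Both E11.5 arrays, at 3.31 and 3.36, lay below all 8 others, which read 3.66 to 4.04. The 8-day culture was 1.63-fold above E11.5 progenitors (log2 change 0.71, SE 0.13, adjusted p = 0.0318). That call was lost with slide as a term (0.71, adjusted p = 0.0842) and without either array of E11.5 progenitors, P0 progenitors or the 8-day culture (0.0700 to 0.0950). P0 non-progenitors were 1.42-fold above E11.5 progenitors (adjusted p = 0.0375), a call lost without any 1 of the 8 arrays outside the 8-day culture (0.0506 to 0.183).

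Cdkn1a, which encodes p21, rose in culture from a low and scattered level in E11.5 progenitors. Its brightest probe, present as 10 spots on each array, read -3.22 and -6.05 in E11.5 progenitors, the second below background, and -0.66 and -2.38 in P0 progenitors. It read -1.49 and -0.34 in P0 non-progenitors, 0.07 and 0.87 in the 8-day culture and 1.86 and 0.94 in the 19-day culture. Both E11.5 arrays were below all others and all 4 culture arrays above all sorted ones. The gap of 2.82 between the E11.5 arrays was larger than the SD between the spots of an array, 0.30 and 0.49 on these 2 and 0.04 to 0.14 on the rest. The level exceeded that of E11.5 progenitors 34.4-fold in the 8-day culture (log2 change 5.11, SE 0.99, adjusted p = 0.034), 65.4-fold in the 19-day culture (6.03, SE 0.99, 0.00698) and 13.2-fold in P0 non-progenitors (0.0396), while the 8.65-fold difference of P0 progenitors did not pass (0.143). These folds include the E11.5 reading below background: raised to the detection floor of its array, it gave 18.2-fold, 34.5-fold, 6.94-fold and 4.56-fold in the same order. The step from 8 to 19 days, 0.93, did not pass (adjusted p = 0.656). With a slide term, the differences of the 8-day culture (4.71, adjusted p = 0.118), the 19-day culture (5.23, 0.158) and P0 non-progenitors (0.0564) from E11.5 progenitors did not pass, and normexp gave 2.38 for the 8-day culture (0.0405), 3.23 for the 19-day culture (0.00459) and -1.30 for E11.5 progenitors minus P0 non-progenitors (0.108). The 8-day call was also lost without E11.5 progenitors replicate 2 (3.69, adjusted p = 0.0735), either 8-day array (0.0917 and 0.119) or any P0 array (0.0554 to 0.0572), and that of P0 non-progenitors without any array but E11.5 progenitors replicate 1 and P0 progenitors replicate 2 (0.05 to 0.182).

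The other Cdkn1a probes gave another profile. The probe annotated to a single Cdkn1a transcript read -4.59 and -3.22 in E11.5 progenitors, -3.54 and -3.64 in P0 progenitors, -2.75 and -3.52 in P0 non-progenitors, -2.36 and -3.85 in the 8-day culture and 0.42 and -0.42 in the 19-day culture. With this probe the 19-day arrays stood apart, and the 8-day arrays were the highest and the second lowest of the other 8. It rose by 3.90 in the 19-day culture against E11.5 progenitors (SE 0.68, adjusted p = 0.00923 over all probes) and by 3.11 against the 8-day culture (0.0364), where the brightest probe did not pass. The third probe, A_55_P1976204, stayed between -4.56 and -2.82, with a difference of 1.41 between the 19-day culture and E11.5 progenitors that did not pass (adjusted p = 0.0747). The brightest probe correlated with these 2 at r = 0.564 and 0.721 over the 10 arrays.

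Cdkn1b, which encodes p27, passed in none of the 10 pairs of groups. It read 1.49 and -0.95 in E11.5 progenitors, 0.91 and 0.97 in P0 progenitors, 1.81 and 1.92 in P0 non-progenitors, 1.20 and 0.80 in the 8-day culture and 1.18 and 0.91 in the 19-day culture. The P0 non-progenitors were highest, and E11.5 progenitors replicate 2 was the single low reading. Without E11.5 progenitors replicate 1, the high array of that pair, 4 differences from E11.5 progenitors passed, those of P0 progenitors (1.90, adjusted p = 0.0306), P0 non-progenitors (0.00323), the 8-day culture (1.96, 0.0266) and the 19-day culture (2.00, 0.0092). The second Cdkn1b probe ran from -3.54 to -0.96 and had r = 0.046 with the first over 10 arrays.

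Cyclin D1 was the member with the most calls, and it moved in opposite directions at birth and after 8 days of culture. Ccnd1 read 0.06 and 0.71 in E11.5 progenitors, 3.12 and 3.12 in P0 progenitors, 3.26 and 2.88 in P0 non-progenitors, -1.52 and -1.02 in the 8-day culture and 1.71 and 1.75 in the 19-day culture. The 2 P0 groups overlapped at the top, and the 19-day culture, E11.5 progenitors and the 8-day culture followed as 3 separate steps. Against E11.5 progenitors it was 6.65-fold higher in P0 progenitors (log2 change 2.73, SE 0.29, adjusted p = 0.00641), 3.15-fold lower in the 8-day culture (-1.66, SE 0.29, 0.0269) and 2.54-fold higher in the 19-day culture (1.34, SE 0.29, 0.0204). From 8 to 19 days it rose 7.99-fold (3.00, SE 0.29, adjusted p = 0.00279). Against P0 progenitors it was 20.9-fold lower in the 8-day culture (-4.39, adjusted p = 9e-04) and 2.62-fold lower in the 19-day culture (-1.39, 0.0227).

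The Ccnd1 differences that involve the 8-day culture held with slide as a term: -1.91 against E11.5 progenitors (adjusted p = 0.0474), -4.64 against P0 progenitors (0.00467) and 2.75 from 8 to 19 days (0.0132). Those of the 19-day culture from sorted cells did not, with 0.84 against E11.5 progenitors (adjusted p = 0.373) and -1.90 against P0 progenitors (0.0927). Single arrays mattered to these calls. The rise in P0 progenitors was lost without either of their arrays (adjusted p = 0.0582 and 0.0604), and the fall in the 8-day culture without E11.5 progenitors replicate 2 (-1.33, 0.0725), either P0 progenitors array (0.0607 and 0.0609) or 8-day culture replicate 1 (-1.40, 0.0925). The 19-day difference from E11.5 progenitors was lost without E11.5 progenitors replicate 1 (1.02, 0.0796) or either 19-day array (0.0833 and 0.0766), and that from P0 progenitors without either array of the 2 groups (0.0764 to 0.119). The difference of 2.53-fold between the 19-day culture and P0 non-progenitors (adjusted p = 0.0311) was lost with slide as a term (-1.85, 0.12) and without any P0 or 19-day array (0.0645 to 0.165).

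Cyclin D2 passed in no pair of groups. Ccnd2 read 3.53 and 2.44 in E11.5 progenitors, 1.07 and 1.40 in P0 progenitors, 2.29 and 2.35 in P0 non-progenitors, -0.79 and 1.95 in the 8-day culture and 2.18 and 2.27 in the 19-day culture. The E11.5 arrays were highest, and the gap of 2.74 between the 8-day arrays, which lay on different slides, was wider than any difference between group means. Without 8-day culture replicate 2, the higher of that pair, the 8-day culture differed by -3.77 from E11.5 progenitors (adjusted p = 0.0198) and by -3.11 from P0 non-progenitors (0.0116), and the 19-day culture exceeded it by 3.01 (0.026). A fit with slide as a term called the 8-day culture (-3.77, 0.0195) and the 19-day culture (-3.50, 0.0322) lower than E11.5 progenitors.

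Cyclin D3 ran opposite to cyclin D1 between the sorted groups, over a small range. Ccnd3 read 3.14 and 3.25 in E11.5 progenitors, 2.38 and 2.36 in P0 progenitors, 2.27 and 2.34 in P0 non-progenitors, 3.10 and 3.08 in the 8-day culture and 2.90 and 2.63 in the 19-day culture. The P0 groups were lowest, and the E11.5 and 8-day arrays were highest. P0 progenitors were 1.78-fold below E11.5 progenitors (log2 change -0.83, SE 0.16, adjusted p = 0.0359), and P0 non-progenitors were 1.85-fold below them (0.00925) and 1.72-fold below the 8-day culture (0.0182). The P0 progenitor call was lost under quantile normalization (-0.63, adjusted p = 0.0946) and without any 1 of the 6 arrays of sorted cells (0.0651 to 0.192). Those of P0 non-progenitors were lost under quantile normalization (0.0593 and 0.0603), against E11.5 progenitors without P0 non-progenitors replicate 1 (0.0538), and against the 8-day culture with slide as a term or without any array of the 2 groups (0.0607 to 0.0978). The second Ccnd3 probe correlated with the first at r = 0.752, but with the mean of both probes the P0 progenitor call was lost. That call was also lost without the intensity trend, with a replicate block and in a fit of the compared groups alone. Ccnd1 and Ccnd3 correlated at r = -0.882 over the 10 arrays, which share scaling, slide and groups.

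Rb1, the shared target of the cyclin D kinases, had its lowest readings in culture and passed in no pair of groups. It read -0.96 and 1.20 in E11.5 progenitors, 0.10 and 0.48 in P0 progenitors, 0.49 and 0.88 in P0 non-progenitors, -1.02 and -1.47 in the 8-day culture and -1.04 and -2.39 in the 19-day culture. All 4 culture arrays were below all 6 sorted arrays. The gap of 2.16 between the E11.5 arrays was larger than the SD between its 10 spots on an array, 0.04 to 0.17. The 19-day culture was 5.26-fold below P0 non-progenitors (adjusted p = 0.0822) and 4.01-fold below P0 progenitors (0.114). Both differences passed without E11.5 progenitors replicate 1 (0.0275 and 0.0393) or replicate 2 (0.0282 and 0.0402), and so did that of 3.80-fold between the 8-day culture and P0 non-progenitors (0.131 with all arrays, 0.0424 and 0.0435 without). Without E11.5 progenitors replicate 1 the 19-day culture also differed from E11.5 progenitors by -2.91 (adjusted p = 0.0249, against 0.133 with all arrays).

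**Figure D3:**
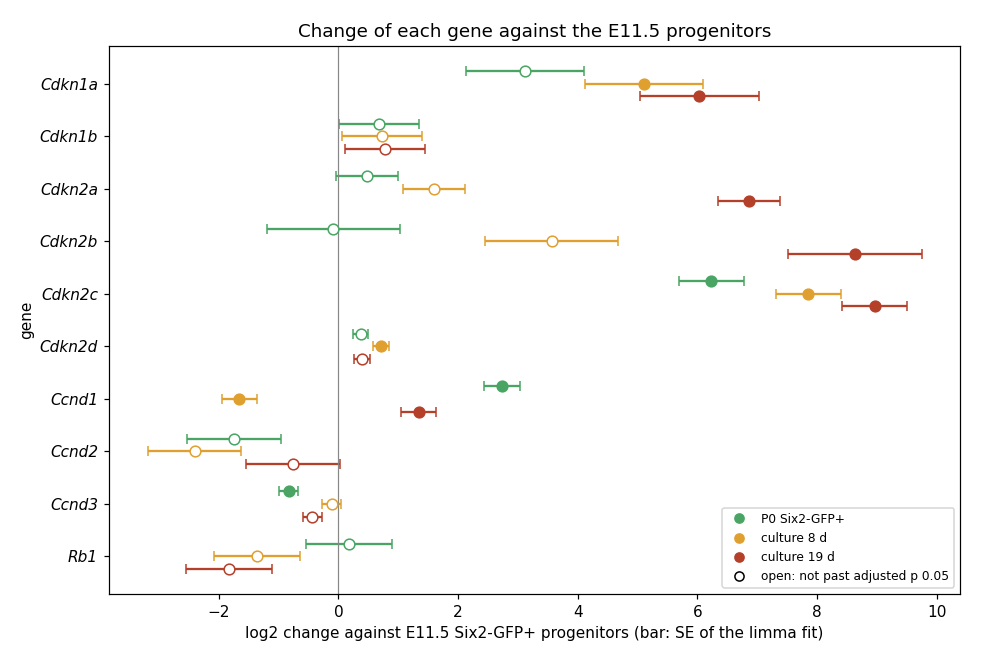
Log2 change of each gene against E11.5 progenitors (x axis) in P0 progenitors, the 8-day culture and the 19-day culture, with bars for the standard error of the limma fit and open points for changes that did not pass an adjusted p of 0.05. Cdkn2c is far to the right in all 3, Cdkn2a and Cdkn2b pass in the 19-day culture alone, and Ccnd1 is left of 0 in the 8-day culture alone; changes of Cdkn2a, Cdkn2b and Cdkn2c start from readings below background.

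Read gene by gene, few neighbours in the order of the 5 groups differed past the threshold. For Cdkn2a and Cdkn2b the 19-day culture was set apart from the 8-day culture, and no other neighbours passed. For Cdkn2c E11.5 progenitors were set apart from P0 progenitors, the next group above. For Ccnd1 the 19-day culture, E11.5 progenitors and the 8-day culture each differed from the group next above (adjusted p = 0.0311, 0.0204 and 0.0269). For the other 6 genes no neighbours passed, which does not show that they were alike: Cdkn2d, for example, did not overlap between P0 and E11.5 progenitors (log2 difference 0.37, adjusted p = 0.186). Against P0 non-progenitors, 5 of the 10 genes passed in E11.5 progenitors, where 17.8% of all genes did, 2 in the 8-day culture (13.2%) and 3 in the 19-day culture (9.40%).

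Kinases and other regulators of the same step differed between several groups. In a list of 23 genes for G1 kinases, E cyclins, pocket proteins and E2F factors, 22 were tested. In the 19-day culture against E11.5 progenitors 2 rose (Cdk6 and the pocket protein gene Rbl2), 9 fell and 11 did not pass, with a median change of -1.22. Of all genes tested, 7.26% were higher in that comparison and 16.9% passed in either direction. In the same list 0 passed between the 8-day culture and E11.5 progenitors by limma (4 had an unadjusted p under 0.05), where 4.83% of all genes did. Between E11.5 progenitors and P0 non-progenitors 9 passed (7 higher and 2 lower in E11.5 progenitors), where 17.8% of all genes did. Cdk6, a partner of the D cyclins, was below background in E11.5 progenitors, P0 progenitors and the 8-day culture and read -2.48 and -3.08 in the 19-day culture, at least 3.21-fold above E11.5 progenitors (adjusted p = 0.0149). It read -2.09 and -3.47 in P0 non-progenitors, which overlapped the 19-day culture. Cdk4, the other partner, read 5.51 and 5.89 in E11.5 progenitors and 4.50 and 4.45 in the 19-day culture, 2.34-fold lower (0.00748), and did not pass at 8 days (-0.44, 0.288). Cdkn1c, the third gene of the Cip and Kip family, encodes p57. Cdkn1c read 3.08 and 2.40 in E11.5 progenitors, -0.58 and -0.46 in P0 progenitors, 2.20 and 2.08 in P0 non-progenitors, 2.51 and 2.40 in the 8-day culture and -0.07 and -1.48 in the 19-day culture. It was low in P0 progenitors and the 19-day culture and high in the other groups: 9.60-fold below E11.5 progenitors at P0 (0.012), 11.4-fold below in the 19-day culture (0.00265), and 1.22-fold below in the 8-day culture, which did not pass (0.796). Skp2, part of the ubiquitin ligase that removes p27, fell 5.70-fold in the 19-day culture against E11.5 progenitors (0.00289). Under the slide term, 2 genes of the list fell and none rose, Cdk4 (-1.75, 0.0243) and Skp2 (-3.16, 0.0253). Cdkn1c (-3.41, 0.0695) and Cdk6 (2.75, 0.262) then did not pass. For this list and those below, the share of all genes that passed with slide as a term is not given. A smaller count is therefore no result about the list. The 2 rises became 1 without E11.5 progenitors replicate 1 or 19-day culture replicate 2, and 0 without E11.5 progenitors replicate 2 or 19-day culture replicate 1.

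Many genes that E2F factors switch on for S phase, and many of mitosis, fell in the 19-day culture against E11.5 progenitors. Of 20 S phase genes, 13 fell and 7 did not pass against E11.5 progenitors, with a median change of -1.93, beside 0.01 for all genes tested. Over all genes, 16.9% passed in either direction in that comparison. The helicase subunit Mcm7 read 5.82 and 6.15 in E11.5 progenitors, 4.75 and 4.47 in the 8-day culture and 3.36 and 3.29 in the 19-day culture, where it was 6.32-fold below E11.5 progenitors (0.000209). Cdc6, which loads the helicase, fell 8.91-fold (0.00072) and the replication factor Gins1 10.4-fold (0.0138). At 8 days 3 of the 20 fell, Mcm2, Mcm7 and Rrm2, and 17 did not pass, with a median of -0.77, where 4.83% of all genes passed. Of 12 mitosis genes, 9 fell and 3 did not pass in the 19-day culture (median -1.79), beside the same 16.9% of all genes. Among them Bub1, of the spindle checkpoint, fell 10.7-fold (0.00133), Aurkb 10.3-fold (0.0202), or 5.35-fold with the 19-day array below background raised to the floor, and Aurka 6.23-fold (0.00361), and Bub1 alone passed at 8 days (3.49-fold lower, 0.0377). After adding slide, 6 of the 20 S phase genes and 1 of the 12 mitosis genes fell in the 19-day culture. Whether all genes lost calls to the same degree in that fit was not tested. At 8 days Mcm7 (adjusted p = 0.0299) and Rrm2 (0.0317) then kept their calls, and Mcm2 (0.0647) and Bub1 (0.0639) did not. The proliferation marker Mki67 did not pass in the 19-day culture, at 2.51 and 2.98 in E11.5 progenitors and 2.70 and 3.10 in the 19-day culture. Against P0 non-progenitors 2 of the 20 and 0 of the 12 fell in the 19-day culture by limma, with an unadjusted p under 0.05 for 4 of the 12. The share of all genes that passed in that comparison was 9.40%. Between P0 and E11.5 progenitors, where Cdkn2c and Ccnd1 differed, 1 S phase gene fell (Rrm2) and 1 mitosis gene rose (Mki67, 3.19-fold, 0.0199), beside 3.96% of all genes. Both calls were lost without E11.5 progenitors replicate 1 or either P0 progenitors array. At 8 days the S phase count became 5 without either 19-day array, and the mitosis count 2 without either 19-day array and 0 without any other array.

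Of 17 genes for p53 and its targets other than Cdkn1a, 8 rose, 1 fell and 8 did not pass in the 19-day culture against E11.5 progenitors, with a median change of 1.99. In that comparison 7.26% of all genes tested were higher and 16.9% passed in either direction. Eda2r read 0.51 and -0.07 in the 19-day culture, at least 25.8-fold above E11.5 progenitors. It entered the tests only through the 19-day culture, where it is high, so its calls there, its place among the 8 included, are no independent support. Ccng1 rose 15.1-fold (0.00432) and Phlda3 12.4-fold (0.0111), and Mdm2, the ubiquitin ligase that removes p53, rose by 1.99 (0.00336). The 1 gene that fell was Trp53 itself, which fell by 1.44 (0.00475). At 8 days Eda2r, above background on 1 of the 2 arrays, was at least 1.60-fold higher (0.0421) and Pmaip1, a BH3-only gene, 118-fold higher (0.0452), or 62.6-fold with the floor, with 3.31 and 3.71 in the 8-day culture and -0.72 and -6.03 in E11.5 progenitors, the last below background. Over all genes, 4.83% passed at 8 days. From 8 to 19 days 5 rose, Mdm2, Bax, Trp53inp1, Eda2r and Aen, and Trp53 fell, where 2.68% of all genes were higher and 8.10% passed in either direction. Neither 8-day call held in a fit with slide (0.128 and 0.14), and from 8 to 19 days Mdm2 (0.0996), Aen (0.175) and Trp53 (0.127) lost theirs. Allowing for slide, 3 rose and none fell in the 19-day culture against E11.5 progenitors, Bax (0.0338), Trp53inp1 (0.0199) and Eda2r (0.0197). The limit given above for Eda2r holds here too, and no share of all genes is given for that fit. The 2 rises at 8 days became 1 without E11.5 progenitors replicate 1 or either P0 progenitors array and 0 without any P0 non-progenitors or culture array. From 8 to 19 days the 5 rises became 3 without either P0 progenitors array or 8-day culture replicate 1 and 2 without 8-day culture replicate 2 or 19-day culture replicate 1, and the 1 fall became 0 without any 1 array other than 19-day culture replicate 2.

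Among 17 known regulators of the Ink4 and Arf locus, 16 were tested, and in the 19-day culture 1 rose, 4 fell and 11 did not pass against E11.5 progenitors (median -0.39). Of all genes tested, 7.26% were higher in that comparison and 16.9% passed in either direction. The 1 rise is thus near the share of all genes. Ezh2, the Polycomb methyltransferase, read 2.32 and 2.55 in E11.5 progenitors, 1.67 and 1.49 in the 8-day culture and -1.49 and -0.72 in the 19-day culture, 11.6-fold below E11.5 progenitors (0.00085), and fell by 2.68 from the 8-day culture (0.00506). Bmi1, a Polycomb repressor of Cdkn2a, fell by 0.97 (0.0114). Hmga2, a chromatin protein, read 4.87 and 4.78 in E11.5 progenitors and 1.82 to 3.07 in P0 progenitors and both cultures. Lin28b, which blocks let-7 miRNAs, read -2.24 and -1.34 in E11.5 progenitors and was below background on the other 8 arrays, at least 7.76-fold lower in the 19-day culture. It entered the tests only through E11.5 progenitors, where it is high, so its calls, with or without a slide term, are no independent support. Tbx2, a repressor of the locus, moved the other way: it was below background in sorted progenitors and the 8-day culture and read -0.41 and -0.57 in the 19-day culture, at least 15.7-fold above E11.5 progenitors (0.000332), and -0.06 and -0.27 in P0 non-progenitors. Fitted with slide, Ezh2 (-3.35, 0.0327), Hmga2, Lin28b and Tbx2 (4.97, 0.0149) kept their calls and Bmi1 did not (-0.997, 0.132). A second gene of the list rose without E11.5 progenitors replicate 2 or 19-day culture replicate 2.

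**Figure D4:**
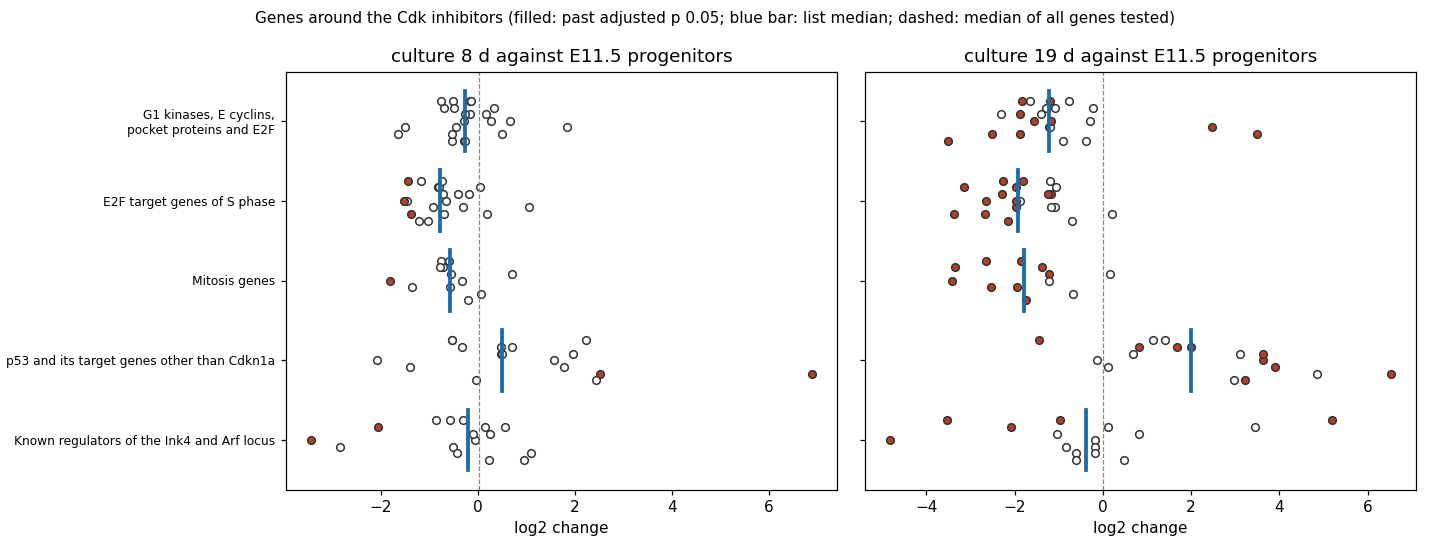
Log2 change (x axis) of each tested gene in 5 lists (y axis) in the 8-day culture (left) and the 19-day culture (right) against E11.5 progenitors. Filled points passed an adjusted p of 0.05, blue bars are list medians and the dashed line is the median of all genes tested; at 19 days the medians of the S phase and mitosis lists lie left of the line and that of the p53 list right of it, with single genes on the other side, where slide and culture time are partly confounded.

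The genes most like the 4 members with the widest range of group means were sought by Pearson correlation over the 10 arrays among 17339 genes. For Cdkn2a they were the stromelysin gene Mmp3 (r = 0.975), Olfr1260 (0.975) and Iqcf1 (0.970), and for Cdkn2b they were Gria3 (0.967), Usp18 (0.962) and Adamts14 (0.956). For Cdkn2c they were Anxa5 (0.981), Hectd2 (0.974) and Eps8 (0.974), and for Cdkn1a Stc2 (0.974), Sirpb1a (0.961) and Pcolce (0.939). These values describe profiles over 5 groups of 2 arrays that share scaling and slide.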

How the data were processed

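RNA of sorted or cultured cells was amplified, labelled with Cy3 and hybridised to 10 arrays, per the labels' protocols. The deposited data hold 1 intensity per spot as Agilent's scanner software (version 11.5.1.1) wrote it, with background subtracted and spatial trends removed, per the file headers, and with no scaling across arrays. Sample labels give P0 where deposited names give E19.5, and P0 is used. For P0 progenitors replicate 2, 62 gene names had turned into dates, so an E11.5 array supplied all names.

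Outlier-flagged spots were left out, log2 intensities were reduced by the 75th percentile of the array, and spots of a probe were averaged. A gene was its probe with the highest mean, tested if some group had both arrays well above background for that probe (26211 of 34607 names). All 10 arrays were fitted together with a mean for each group in limma 3.58.1 (R 4.3.3, package data.table, version 1.17.8), with an intensity trend, 5 residual and 2.49 prior degrees of freedom, and 2-sided Benjamini-Hochberg adjustment within each comparison at 0.05. The procedure was tested on simulated data. The number of arrays limits the precision. Alternatives changed the background correction, scaling, filter, choice of probe, trend, blocks for slide and replicate number, and the arrays used.

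Named genes were the 10 members, up to 3 called genes with the largest change per list and comparison, the 3 genes most correlated with each of the 4 members of widest range, and Cdkn1c, Cdk4 and Cdk6. Other names were picked with their values known. The members and lists were chosen with earlier results of these data known. Promoter sequences are from RefSeq (GRCm38.p6) and were not placed on mm9, the assembly of the probe positions.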

Additional observations from a re-analysis of the deposited data

How the results depend on the processing

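Over the 10 pairs of groups and all alternatives run, 1936 alternative values of the members kept their side of the threshold, 124 lost the call and 40 gained it. The sign changed in 34 values of 22 results, none of them called under either setting, the widest being Ccnd2 in the 19-day culture against P0 progenitors (0.99, and -1.75 with slide as a term). No called value changed sign. Counts of the 10 genes called moved by more than 1.5 times as follows. A fit of the compared groups alone called 2 between P0 progenitors and P0 non-progenitors, 0 for the 8-day and 3 for the 19-day culture against E11.5 progenitors, and 0 from 8 to 19 days. Requiring signal above background on all arrays, which drops 4 of the 10 genes by construction, called 2 at 8 days and 1 at 19 days against E11.5 progenitors, 1 from 8 to 19 days, and 1 for the 19-day culture against P0 progenitors. With slide as a term 3 were called in the 19-day culture against E11.5 progenitors, Cdkn2a and Cdkn2c higher and Ccnd2, newly called, lower. The rises of Cdkn1a, Cdkn2b and Ccnd1 lost their calls. Against P0 progenitors 1 was called, Cdkn2a. Slide 1 alone called 2 for the 8-day culture against E11.5 progenitors and slide 2 alone 0 from 8 to 19 days. Without the intensity trend 2 were called for the 8-day culture against E11.5 progenitors. Beyond the fewer samples or genes of some settings, the cause was not tested. Shares of all genes called under these settings are not given, here or for the counts below. The counts therefore cannot be set against them. Leaving out each array in turn gave 0 to 1 between the P0 groups, 1 to 3 between P0 and E11.5 progenitors, 1 to 4 (8 days) and 4 to 6 (19 days) against E11.5 progenitors, 2 to 3 from 8 to 19 days, and 1 to 2 (8 days) and 2 to 6 (19 days) against P0 progenitors. A lone array left in a group is assumed to vary like the others.

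Arrays of the same replicate number did not deviate together (r from -0.015 to 0.028 over genes). A replicate block called 0 between the P0 groups, 2 between P0 and E11.5 progenitors, 4 and 5 for the 8-day and 19-day cultures against E11.5 progenitors, 3 from 8 to 19 days, and 1 and 4 against P0 progenitors. Quantile normalization moved the share of higher calls over all genes from 50.5% to 33.7% between P0 progenitors and P0 non-progenitors, from 51.4% to 66.1% between P0 and E11.5 progenitors, from 33.1% to 46.6% from 8 to 19 days, and from 60.5% to 44.3% for the 8-day culture against P0 progenitors. List counts under these settings and folds with readings raised to the detection floor were added after seeing the data. With 2 arrays a group, a change of several fold can miss the threshold, and readings below background give only bounds.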
